A study of Mus musculus with 50 samples.

Results

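Levels of 9 transcription factor genes of the dorsal telencephalon and its cortical neurons were described in whole mouse brains at the embryonic stage E13.5. The genes, Lhx2, Emx1, Emx2, Eomes, Tbr1, Neurod2, Neurod6, Bcl11b and Fezf2, were chosen by symbol. All 9 were present among the 11708 genes of the deposited count table. They had been named with earlier results of these data known, in particular low values in the libraries labelled gtf2i/gtf2i, so every value from that group is given below as a description and supports nothing by itself.

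The dorsal telencephalon forms the cerebral cortex. Its progenitors divide at the ventricle, pass through an intermediate progenitor stage, and give rise to glutamatergic neurons of the cortical plate. Lhx2, Emx1 and Emx2 encode homeodomain factors that pattern the cortical progenitor field. Eomes (also called Tbr2) marks intermediate progenitors. Tbr1, a T-box factor, specifies early-born corticothalamic and subplate neurons. Neurod2 and Neurod6 encode basic helix-loop-helix factors of newborn and maturing cortical neurons, a family that binds the E-box motif. Bcl11b (also called Ctip2) and Fezf2 are zinc finger factors of neurons that project below the cortex, and Bcl11b is also made in the striatum.

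RNA sequencing covered 18 embryos of the FVB/ANTJ strain in 6 genotype groups of 3. The study asked how mutation of Gtf2i or of Gtf2ird1, neighbouring genes of the Williams syndrome region, alters the developing brain. In the gtf2i cross, as it is called here, the groups were wild type (wt), gtf2i and gtf2i/gtf2i; in the ird1 cross they were a separately labelled wt group, ird1 and ird1/ird1. A genotype label that names an allele once was read as 1 mutant allele. The labels give neither the sex of the embryos nor the nature of the mutations, and they do not say that the embryos of a group came from separate litters, so p-values measure the spread between these samples. The 32 chromatin immunoprecipitation and input samples were not analysed here.

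Total counts ranged from 3239117 to 7371483 per library, and the 9 genes had between 109 and 2833 counts each in a library. The smallest of these counts carries a counting error of 9.58%. Gtf2i was at 624 ± 30.7 CPM (counts scaled to a common library total) in wt, 368 ± 6.23 in gtf2i and 82.5 ± 0.797 in gtf2i/gtf2i (mean ± SD, n = 3 each). Gtf2ird1 RNA went against its label: it was at 98.2 CPM in wt of the ird1 cross, 149 in ird1 and 223 in ird1/ird1 on average, so the ird1 groups are named below only as labelled. It was also higher in the mutant groups of the gtf2i cross, at 92.4 CPM in wt, 136 in gtf2i and 267 in gtf2i/gtf2i. The library gtf2i/gtf2i replicate 3 stood apart. Without it, 1159 instead of 110 genes were called in gtf2i/gtf2i against wt, where called means an adjusted p under 0.05 by edgeR's quasi-likelihood test over all genes. The members and markers called in gtf2i/gtf2i against wt are counted below with and without it.

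The RefSeq promoter table (GRCm38.p6) held all 9 genes. The 250 bases before the annotated start are printed for 2 pairs of paralogs, because Neurod2 and Neurod6 had the lowest fold changes of the 9 in gtf2i/gtf2i and Emx2 the one nearest to 0, with Emx1 printed beside its paralog. Capitals mark matches to the E-box CANNTG, which reads the same on both strands.

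Neurod2: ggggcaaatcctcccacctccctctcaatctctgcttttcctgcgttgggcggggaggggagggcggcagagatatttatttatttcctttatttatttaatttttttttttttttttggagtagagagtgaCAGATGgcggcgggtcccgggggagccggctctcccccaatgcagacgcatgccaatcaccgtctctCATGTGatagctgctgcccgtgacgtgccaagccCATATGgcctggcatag
Neurod6: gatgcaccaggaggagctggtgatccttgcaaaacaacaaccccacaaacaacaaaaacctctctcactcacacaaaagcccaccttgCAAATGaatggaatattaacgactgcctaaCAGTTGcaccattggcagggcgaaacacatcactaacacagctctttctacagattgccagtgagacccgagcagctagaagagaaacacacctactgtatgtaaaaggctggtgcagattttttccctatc
Emx1: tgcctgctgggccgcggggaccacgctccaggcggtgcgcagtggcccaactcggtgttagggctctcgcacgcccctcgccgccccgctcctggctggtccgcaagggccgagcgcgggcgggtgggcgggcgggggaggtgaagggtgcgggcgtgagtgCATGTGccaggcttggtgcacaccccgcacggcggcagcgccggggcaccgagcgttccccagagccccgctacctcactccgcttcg
Emx2: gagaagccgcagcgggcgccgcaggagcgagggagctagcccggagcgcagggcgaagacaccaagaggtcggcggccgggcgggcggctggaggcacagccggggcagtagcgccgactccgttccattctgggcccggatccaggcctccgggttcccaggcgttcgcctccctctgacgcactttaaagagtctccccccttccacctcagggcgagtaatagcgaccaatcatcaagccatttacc

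The windows lie at chr11:98329646-98329895 (minus strand, Neurod2), chr6:55681264-55681513 (minus strand, Neurod6), chr6:85187681-85187930 (plus strand, Emx1) and chr19:59458440-59458689 (plus strand, Emx2). Neurod2 held 3 E-box matches, at 118, 51 and 17 bases before the start. Neurod6 held 2, at 162 and 132 bases. Emx1 held 1, at 88 bases, and Emx2 held none. Of 32851 windows of this length over all genes, 66.2% held at least 1 CANNTG, with a mean of 1.16, so its presence sets no gene apart. CAGATG, a form of the E-box bound by neurogenic helix-loop-helix factors, was in 14.4% of windows and, of the 9 genes, in Neurod2 alone. Tbr1 also held 1 E-box, and the windows of Eomes, Bcl11b, Lhx2 and Fezf2 held none. The homeodomain letters TAATTA occurred in 4.84% of windows and were found at 2 places before Tbr1. GGATTA, letters recognised by the product of Gtf2ird1, were in 6.25% of windows on either strand and in none of the 9 genes. The absence of a match says only that these letters are not in this window. The windows of Emx1 and Emx2 were rich in GC, at 75.6% and 67.2%, beside 52.8% for Neurod2, 46.0% for Neurod6 and a median of 52.4% over all windows.

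Lhx2 was the most abundant of the 9 in wt brains. To compare genes, CPM were divided by the transcript length given in the table, from 1561 bases for Emx1 to 8111 bases for Bcl11b. On this scale Lhx2 was at 123 ± 7.38 CPM per kilobase in wt of the gtf2i cross and 127 ± 5.38 in wt of the ird1 cross, above every other member with no overlap. Neurod6 (45.3 and 42.2), Tbr1 (42.7 and 43.6) and Neurod2 (40.9 and 46.9) followed, with overlapping libraries. Bcl11b was at 31.5 and 28.5, Emx2 at 23.1 and 21.4, Fezf2 at 20.4 and 22.2, and Eomes at 20.2 and 23.2 CPM per kilobase. Emx1 changed place between the crosses, from position 6 at 30.7 to position 3 at 45.3.

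**Figure D1:**
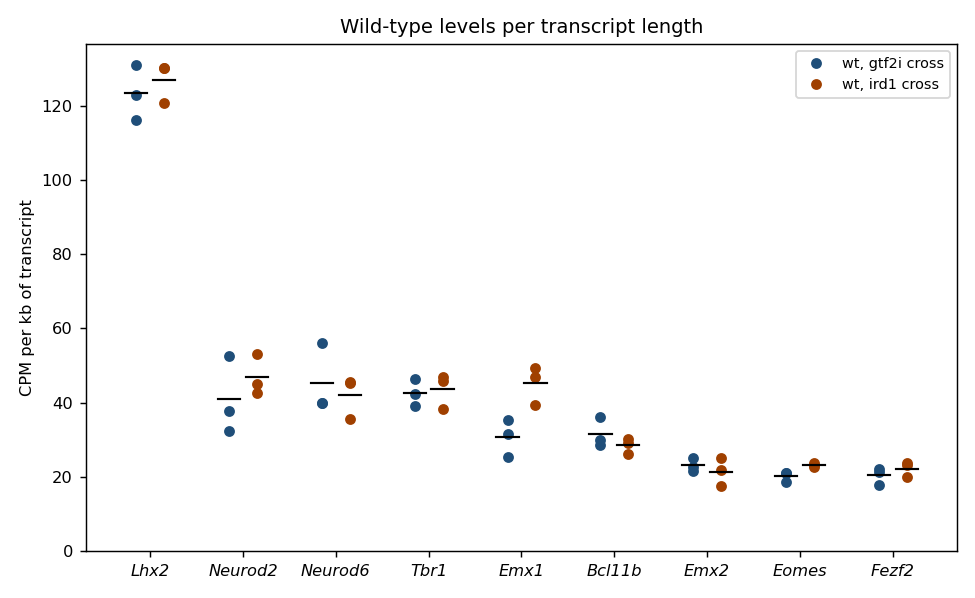
Levels of the 9 genes in wt libraries, as CPM per kilobase of transcript. Points are libraries, colours are crosses and short lines are means of 3. Lhx2 lies near 123 and 127, far above the rest, and the crosses do not overlap for Emx1 and Eomes.

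Among the progenitor factors, Lhx2 and Emx2 had libraries of gtf2i/gtf2i that overlapped wt, and Emx1 did not. Lhx2 was at 372, 330.4 and 349 CPM in wt replicates 1, 2 and 3, at 373, 353 and 320.0 in gtf2i, and at 333, 325 and 273 in gtf2i/gtf2i. The groups overlapped, and the gtf2i/gtf2i mean was 88.5% of wt (log2 fold change -0.18, 95% interval -0.38 to 0.01). Emx2 was at 66.2, 72.7 and 63.1 CPM in wt, at 65.8, 70.8 and 57.5 in gtf2i, and at 70.1, 63.5 and 61.0 in gtf2i/gtf2i. These 9 values interleave, and the log2 fold change of -0.06 had an interval of -0.28 to 0.17.

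Emx1, the paralog of Emx2, was at 55.2, 39.7 and 49.1 CPM in wt, at 48.3, 55.2 and 59.5 in gtf2i, and at 38.8, 37.0 and 16.6 in gtf2i/gtf2i. Every gtf2i/gtf2i library lay below every wt library, but only by 0.84 CPM between replicate 1 and wt replicate 2, and replicate 3 was far below the others. The log2 fold change was -0.67 (SE 0.231) and was not called (adjusted p 0.179, edgeR's quasi-likelihood test). Without gtf2i/gtf2i replicate 3 it was -0.34, with an adjusted p of 0.427, in a range of 0.148 to 0.427 over the fits that leave out 1 library. The ratio of Emx1 to Emx2 counts, which no scaling touches and which was chosen after the values were seen, was 0.834, 0.545 and 0.778 in wt and 0.554, 0.582 and 0.273 in gtf2i/gtf2i. These ratios overlap between the groups.

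Eomes, the intermediate progenitor factor, was at 75.0, 66.5 and 74.4 CPM in wt, at 90.5, 88.1 and 80.2 in gtf2i, and at 56.0, 45.7 and 36.2 in gtf2i/gtf2i. The 3 groups did not overlap, with gtf2i highest and gtf2i/gtf2i lowest, at 63.9% of the wt mean. The log2 fold change of gtf2i/gtf2i against wt was -0.66 (SE 0.133, adjusted p 0.0340 by edgeR). The call was lost without wt replicate 1, wt replicate 3 or gtf2i/gtf2i replicate 2, and over all leave-one-out fits the adjusted p ran from 0.0110 to 0.147.

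The 2 lowest fold changes of the set were in factors of cortical neurons. Neurod6 was at 85.7, 85.8 and 121 CPM in wt, at 112, 119 and 110.3 in gtf2i, and at 34.5, 36.7 and 47.3 in gtf2i/gtf2i. The highest gtf2i/gtf2i library lay well below the lowest wt library, and the group mean was 40.6% of wt. Its log2 fold change of -1.30 (SE 0.149, interval -1.62 to -0.98) was the 4th lowest of 11708 genes.

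Neurod2 was at 119, 102 and 165 CPM in wt, at 134, 152 and 148 in gtf2i, and at 50.2, 54.3 and 58.4 in gtf2i/gtf2i. The wt libraries were widely spread, with replicate 3 highest, while the gtf2i/gtf2i libraries lay within 8.27 CPM of each other at 42.2% of the wt mean. Its log2 fold change of -1.25 (SE 0.150) was the 7th lowest of all genes.

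Tbr1 was at 169, 156 and 184 CPM in wt, at 188, 190.5 and 180.1 in gtf2i, and at 113, 106 and 106 in gtf2i/gtf2i. The gtf2i/gtf2i libraries were tightly grouped at 63.9% of the wt mean, and did not overlap the others. The log2 fold change of Tbr1 was -0.65 (SE 0.0835), smaller than those of Neurod2 and Neurod6, and its adjusted p by edgeR was 0.00154. The count ratio of Neurod6 to Tbr1 was 0.508, 0.550 and 0.655 in wt and 0.305, 0.346 and 0.447 in gtf2i/gtf2i, with no overlap.

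Bcl11b was at 242, 231 and 293 CPM in wt, at 267, 292 and 281 in gtf2i, and at 142, 146 and 196 in gtf2i/gtf2i. Replicate 3 was the highest in both wt and gtf2i/gtf2i, and these groups did not overlap. Bcl11b had a log2 fold change of -0.67 (SE 0.124, adjusted p 0.0206 by edgeR), and the call was lost without wt replicate 3, gtf2i/gtf2i replicate 1 or gtf2i/gtf2i replicate 2 (adjusted p up to 0.137). Fezf2, which acts in the same subcortical projection neurons, was at 51.5, 43.4 and 53.5 CPM in wt and at 43.6, 32.8 and 31.3 in gtf2i/gtf2i. Here the groups overlapped by one gtf2i/gtf2i library, replicate 1. The log2 fold change of Fezf2 was -0.47 (SE 0.131), not called (adjusted p 0.0930, edgeR), or -0.64 and 0.0428 without that library, the lowest adjusted p of the leave-one-out fits (up to 0.356).

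**Figure D2:**
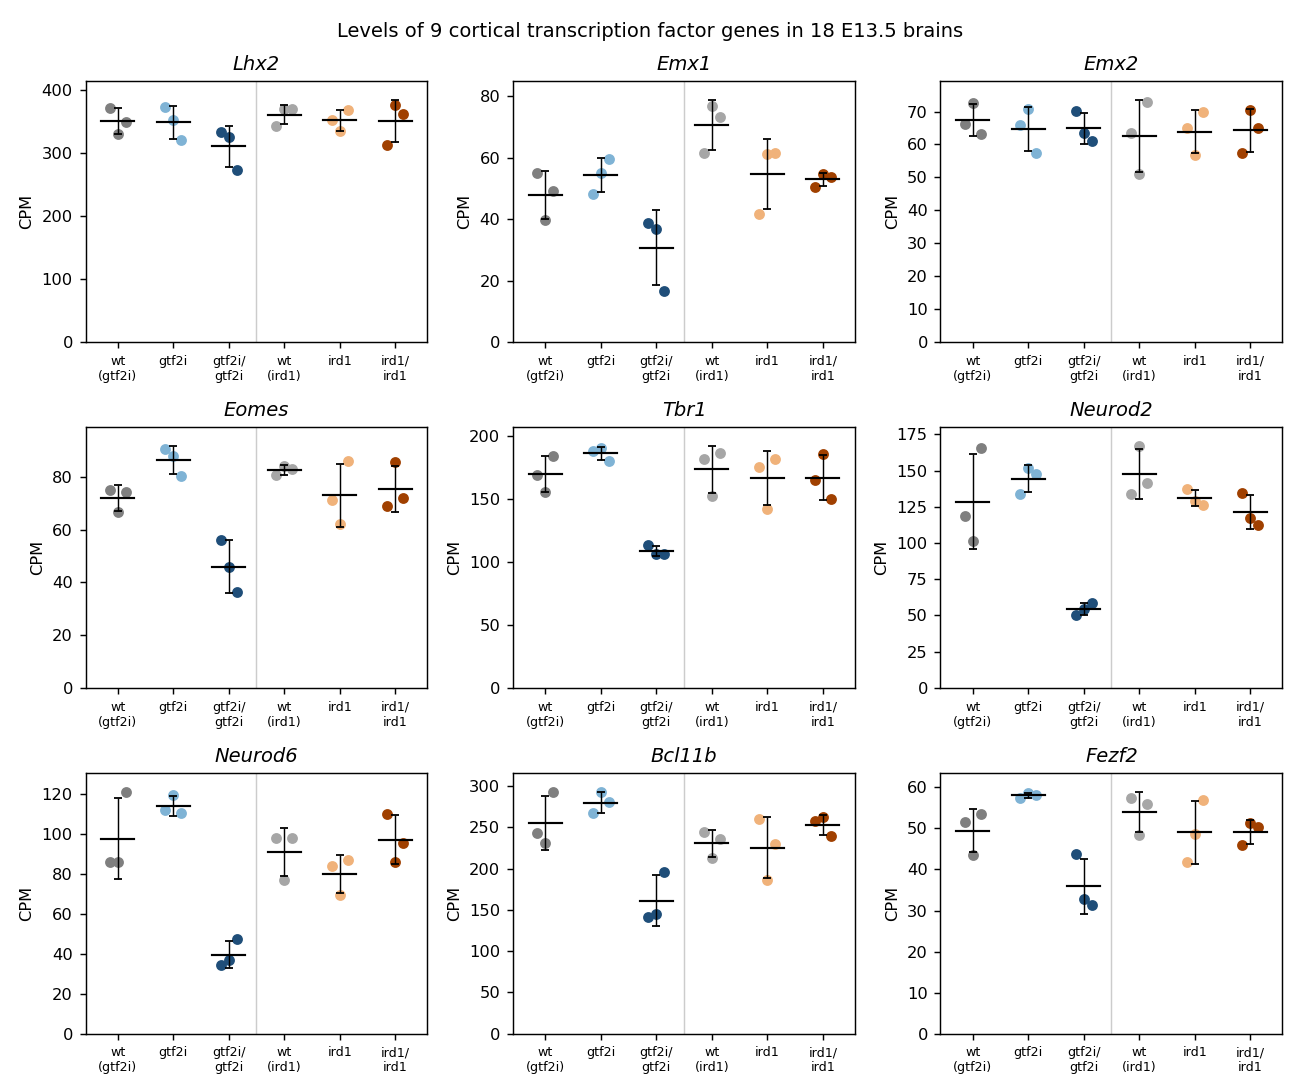
CPM of each gene in each library, with 6 genotype groups on the x axis, separated by cross. Points are libraries, horizontal lines are group means and bars are SD over 3 libraries. The gtf2i/gtf2i libraries of Neurod6 (34.5 to 47.3 CPM) and Neurod2 (50.2 to 58.4 CPM) lie below all others, whereas Emx2 is level across groups.

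Set against wt, 9 of 9 genes were lower in gtf2i/gtf2i, where 49.6% of all genes were lower, and the median log2 fold change was -0.66 beside 0.00 over all genes. Of the 9, 5 were called, against 0.94% of all genes called: Neurod6, Neurod2, Tbr1, Eomes and Bcl11b. The groups did not overlap for 6 of 9, against 16.8% of all genes. Because low values in this group were known when the genes were named, nothing is read from these shares. The same 5 were called without gtf2i/gtf2i replicate 3, against 9.9% of all genes. With only the wt and gtf2i/gtf2i libraries in the fit 3 were called, Eomes and Bcl11b being lost. That fit called 31 of 11708 genes. With the level of the X-linked gene Kdm5c as a covariate 0 were called, against 0.0683% of all genes. In bulk RNA, fewer cells of a type and less RNA per cell cannot be told apart.

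Markers of other cell types moved with the same groups. Of 40 markers of the diencephalon, midbrain and hindbrain, regions that a whole brain also holds, 30 were in the table. In gtf2i/gtf2i 24 of the 30 were higher than in wt, and 3 were called: Nkx6-1 (0.97), Pax3 (0.82) and Irx2 (0.53 on the log2 scale). Their summed level was 1912 to 2666 CPM in gtf2i/gtf2i, 2021 to 2086 in wt and 1671 to 1898 in gtf2i, and was highest in gtf2i/gtf2i replicate 3. Without that library the top of the gtf2i/gtf2i range was 2257 CPM, and 9 of 30 were called, 6 of them higher. Among the markers absent from the table were Atoh1, Ptf1a and the listed Hox genes, which define hindbrain fates.

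Red blood cell genes summed to 5894 to 9263 CPM in gtf2i/gtf2i and 4185 to 5389 in wt, highest in gtf2i/gtf2i replicate 2. Of the 10, 9 were higher (median 0.35 on the log2 scale) and 2 were called higher, Slc4a1 and the embryonic globin Hbb-y. Radial glia and cycling progenitor markers summed to 4177 to 4768 CPM in gtf2i/gtf2i against 3512 to 3914 in wt, with 13 of 17 higher and 1 called, the matrix gene Tnc, which fell by 1.43 on the log2 scale. Pan-neuronal markers such as Tubb3 and Dcx summed to 6061, 6176 and 7967 CPM in gtf2i/gtf2i and to 7342 to 8103 in wt, so that only replicate 3 overlapped wt. Of these markers 0 of 18 were called by edgeR, with 6 of 18 lower at an unadjusted p under 0.05, against 8.3% of all genes. Without replicate 3, 10 of 18 were called, all lower. Ventral telencephalon markers summed to 1485, 1576 and 1691 CPM against 1647 to 1728, again with replicate 3 alone overlapping wt. Of the ventral markers 1 of 22, Dlx1 (-0.41), was called, and 4 of 22 without replicate 3, all lower. Of the mesenchyme markers 11 of 14 were higher and 0 were called by edgeR, with 5 higher and 1 lower at an unadjusted p under 0.05. Of the endothelium markers 7 of 11 were lower and 0 were called by edgeR, with 1 lower at an unadjusted p under 0.05. Over all genes 14.4% were at that threshold in either direction. Without replicate 3, the calls were 9 of 17 radial glia markers, 7 of them higher, 4 of 10 red blood cell markers, all higher, 7 of 14 mesenchyme markers, 6 of them higher, and 0 of 11 endothelium markers. The part of these differences in the levels of the 9 genes was not tested.

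**Figure D3:**
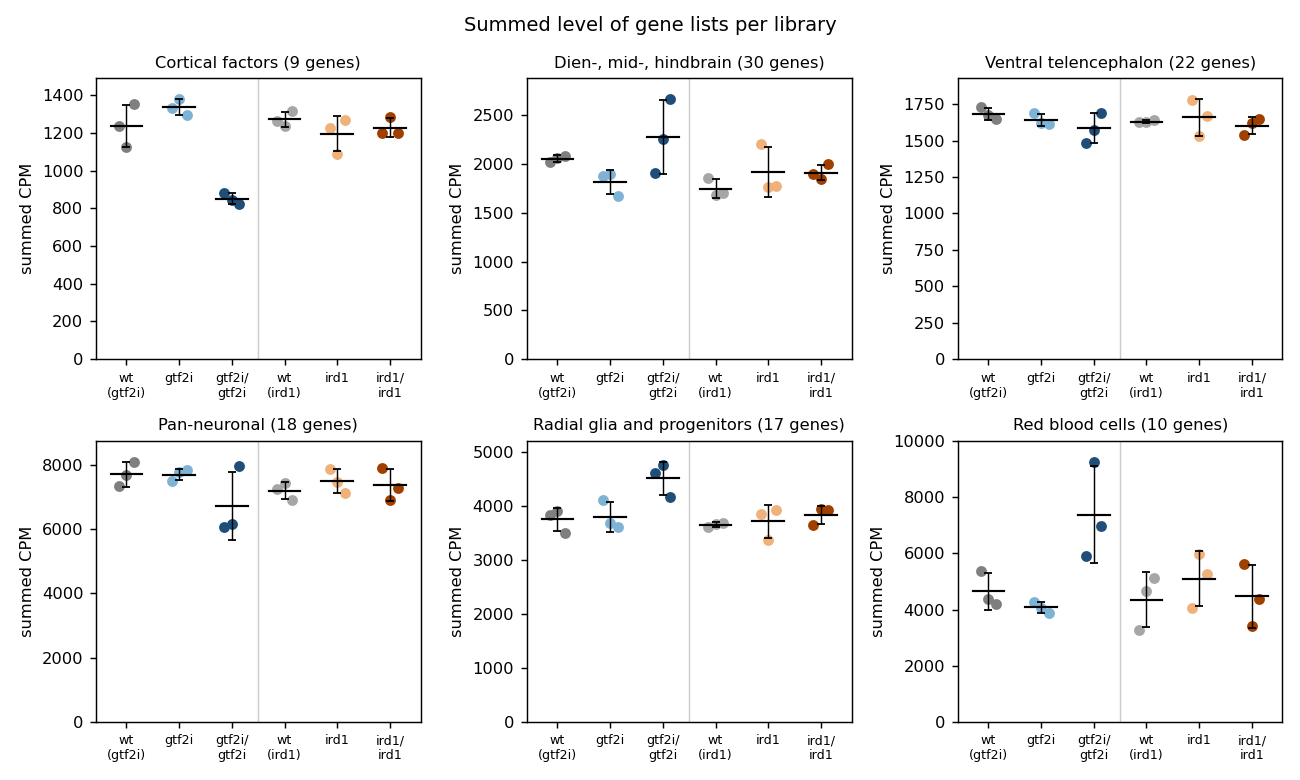
Summed CPM per library of the 9 genes and of 5 marker lists, by genotype group. Points are libraries, horizontal lines are means and bars are SD over 3 libraries. The 9 genes sum to 826 to 881 CPM in gtf2i/gtf2i and to 1127 to 1352 in wt, while radial glia and red blood cell markers lie higher in gtf2i/gtf2i than in wt.

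Other dorsal telencephalon and cortical genes showed a mixed picture. All 50 listed were in the table; 30 were lower and 20 higher in gtf2i/gtf2i than in wt, at a median of -0.04 on the log2 scale, and 6 were called. Those that fell included Nfib (-0.82), Bhlhe22 (-0.73), Reln (-0.68) and Nfia (-0.53). Nfib and Nfia are nuclear factor I genes of late progenitors and deep-layer neurons, Bhlhe22 is a helix-loop-helix factor of postmitotic cortical neurons and Reln is secreted by Cajal-Retzius cells. Nhlh2, a helix-loop-helix gene of early differentiating neurons in many regions, rose (0.51). Pax6, a factor of radial glia, was at 0.06 (SE 0.125) and Neurog2, a proneural gene, at -0.03 (SE 0.0835). Both were picked from the list after their values were seen, and neither was called. Without gtf2i/gtf2i replicate 3, 17 of the 50 were called, 4 of them higher.

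The libraries of the gtf2i cross also fall into 3 sets of wt, gtf2i and gtf2i/gtf2i that share a number at the start of their titles, whose meaning the labels do not give. Within these sets, compared after the values were seen, 7 of 9 genes were lower in gtf2i/gtf2i than in wt in all 3, against 20.1% of all genes. One of the 7 was Emx2, at 95.9% to 96.7% of wt. Neurod6 was at 39.2%, 40.3% and 42.8% of the wt library of its set. Neurod2 was at 35.4%, 45.7% and 49.4%, Tbr1 at 57.4%, 62.9% and 72.5%, and Bcl11b at 60.0%, 61.3% and 67.1%. Eomes (48.6% to 84.2%) and Emx1 (33.9% to 97.9%) varied far more, and both were lowest in the set of gtf2i/gtf2i replicate 3. Lhx2 (100.8%) and Fezf2 (100.5%) were at the wt level in the set of gtf2i/gtf2i replicate 1. With this number as a block, 6 of 9 were called, the added gene being Fezf2 (adjusted p 0.0465 by edgeR), where 5.33% of all genes were called.

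In gtf2i against wt, the heterozygous comparison, 2 of 9 genes were lower, against 50.4% of all genes, and 0 were called, against 0.00854%. This comparison shares its wt libraries with the one above. The log2 fold changes ran from -0.06 for Emx2 to 0.26 for Eomes (SE 0.127), with Fezf2 and Neurod6 at 0.22, and 0 of 9 had an unadjusted p under 0.05, beside 1.6% of all genes. Eomes and Fezf2 had groups that did not overlap, 2 of 9 genes against 7.27% of all. For Fezf2 the gtf2i libraries were at 57.3, 58.6 and 58.1 CPM, above each wt library. The interval was -0.08 to 0.51 for Neurod6 and -0.14 to 0.46 for Neurod2. In the same comparison 27 of 30 diencephalon, midbrain and hindbrain markers (median -0.23), 8 of 10 red blood cell markers (median -0.11) and 11 of 11 endothelium markers (median -0.16) were lower, with 0 called by edgeR and 1, 1 and 0 at an unadjusted p under 0.05. Their part in the members' values was not tested.

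Set against gtf2i, which shares the gtf2i/gtf2i libraries with the comparison to wt, 8 of 9 genes were lower in gtf2i/gtf2i, beside 48.5% of all genes. Neurod6 had a log2 fold change of -1.52 (SE 0.149), Neurod2 of -1.41 (SE 0.150), Eomes of -0.91, Emx1 of -0.85, Bcl11b of -0.80, Tbr1 of -0.78 and Fezf2 of -0.69. Of the 9, 6 were called, against 3.12% of all genes, and 7 of 9 did not overlap, against 19.2%. Emx1 was not called (adjusted p 0.0638 by edgeR), but was without gtf2i/gtf2i replicate 3 (-0.52, adjusted p 0.0236, where the leave-one-out fits gave up to 0.267). With the title number as a block Emx1 was called too (adjusted p 0.0160), which made 7 of 9, against 7.62% of all genes. Fezf2 lost its call without gtf2i replicate 2, gtf2i replicate 3 or gtf2i/gtf2i replicate 2. Lhx2 (-0.17) and Emx2 (0.00) were not called. In this comparison 27 of 30 diencephalon, midbrain and hindbrain markers were higher and 11 were called, with a median of 0.47. Of the red blood cell markers 8 of 10 were higher and 5 were called higher, with a median of 0.58. Of the radial glia and cycling progenitor markers 14 of 17 were higher, 3 were called higher and 1 lower, with a median of 0.18, and of the pan-neuronal markers 15 of 18 were lower and 1 was called. Without gtf2i/gtf2i replicate 3, 12 of 30 markers of the diencephalon, midbrain and hindbrain, 6 of 10 of red blood cells, 8 of 17 of radial glia (6 of them higher) and 10 of 18 pan-neuronal ones (all lower) were called, against 11.8% of all genes. Their part in the values of the 9 genes was not tested.

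Kdm5c, an X-linked gene that escapes inactivation in the mouse, differed between libraries whose sex the labels do not give. It was at 286, 303 and 287 CPM in wt, at 401, 395 and 379 in gtf2i, and at 314, 397 and 384 in gtf2i/gtf2i. Thus no wt library overlapped either mutant group, and gtf2i/gtf2i replicate 1 was nearest to wt. Of the gtf2i/gtf2i libraries, that one was the lowest for 3 of 9 genes, Neurod2, Neurod6 and Bcl11b, and the highest for the other 6. With the log level of Kdm5c as a covariate, 0 of 9 genes were called in gtf2i/gtf2i against wt, against 0.0683% of all genes, with 4 at an unadjusted p under 0.05, against 9.2%. The estimates were -1.49 for Neurod6 (SE 0.277, adjusted p 0.139), -1.28 for Neurod2, -0.84 for Bcl11b, -0.56 for Tbr1 and -0.31 for Eomes by the same edgeR test. Against gtf2i, where Kdm5c levels overlap, 6 of 9 were called with this covariate as without it, where 1.35% of all genes were called.

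In the ird1 cross none of the 9 genes was called. Neurod6 was at 97.6, 76.7 and 97.7 CPM in wt, at 83.6, 69.2 and 86.8 in libraries labelled ird1, and at 109.8, 85.6 and 95.1 in those labelled ird1/ird1. These groups overlapped, and the log2 fold change of ird1/ird1 against wt was 0.07 (interval -0.18 to 0.33). Neurod2 was at 134, 167 and 141 CPM in wt, at 138, 129 and 126 in ird1, and at 134, 117 and 112 in ird1/ird1. Its groups overlapped too, with a log2 fold change of -0.29 (SE 0.102, interval -0.50 to -0.07, adjusted p 0.296 by edgeR). Emx1 was at 61.6, 77.0 and 73.4 CPM in wt, at 41.7, 61.1 and 61.5 in ird1, and at 50.5, 54.7 and 53.9 in ird1/ird1. Every library labelled ird1 or ird1/ird1 lay below every wt library.

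The log2 fold change of Emx1 was -0.42 (SE 0.145, adjusted p 0.296) in ird1/ird1 and -0.36 (SE 0.144, adjusted p 0.997) in ird1 by edgeR's quasi-likelihood test, in comparisons that share the wt libraries. Over the set, 6 of 9 were lower in ird1/ird1 than in wt (median -0.07) and 8 of 9 in ird1 (median -0.14), beside 50.5% and 51.1% of all genes. Of the 9, 0 were called, against 0.00854% and 0% of all genes. Emx1 was the 1 of 9 without overlap in each comparison, beside 26.9% and 7.04% of all genes. Unadjusted p-values under 0.05 were reached by 2 of 9 in ird1/ird1 (16.1% of all genes) and by 1 of 9 in ird1 (3.02%). The remaining members, Tbr1 (-0.07, interval -0.31 to 0.16), Eomes (-0.14), Bcl11b (0.12), Fezf2 (-0.16), Lhx2 (-0.06) and Emx2 (0.02), had overlapping groups in ird1/ird1 against wt. Of ird1/ird1 against ird1, 0 of 9 were called and 0 of 9 were free of overlap, beside 0% and 17% of all genes, and Neurod6, the 1 of 9 with an unadjusted p under 0.05 (4.66% of all genes), had the value farthest from 0 (0.27, adjusted p 0.766 by edgeR).

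Of the markers of other regions and cell types, 0 were called in the ird1 cross by edgeR. In ird1 against wt, 3.02% of all genes had an unadjusted p under 0.05. There 26 of 30 diencephalon, midbrain and hindbrain markers were higher (median 0.18, 4 at that threshold), and so were 10 of 10 red blood cell markers (median 0.22, 1 at that threshold). Also higher were 14 of 18 pan-neuronal (2 at that threshold) and 11 of 17 radial glia markers (0 at that threshold). All 14 mesenchyme (median -0.17) and all 11 endothelium markers (median -0.20) were lower, with 0 and 1 at that threshold. Ventral markers were split 11 to 11, with 1 at that threshold. In ird1/ird1 against wt, where 16.1% of all genes were at that threshold, 24 of 30 diencephalon, midbrain and hindbrain markers (median 0.13) and 8 of 10 red blood cell markers (median 0.06) were higher, with 3 and 0 at the threshold. There 12 of 14 mesenchyme (median 0.16, 1 at the threshold), 6 of 11 endothelium (0 at it), 13 of 18 pan-neuronal, 11 of 17 radial glia and 8 of 22 ventral markers were higher. At the threshold, 5 pan-neuronal markers were higher and 1 lower, and 2 ventral markers were higher and 5 lower. Of the radial glia markers 1 was higher and 1 lower at it. The part of these markers in the values of the 9 genes was not tested.

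**Figure D4:**
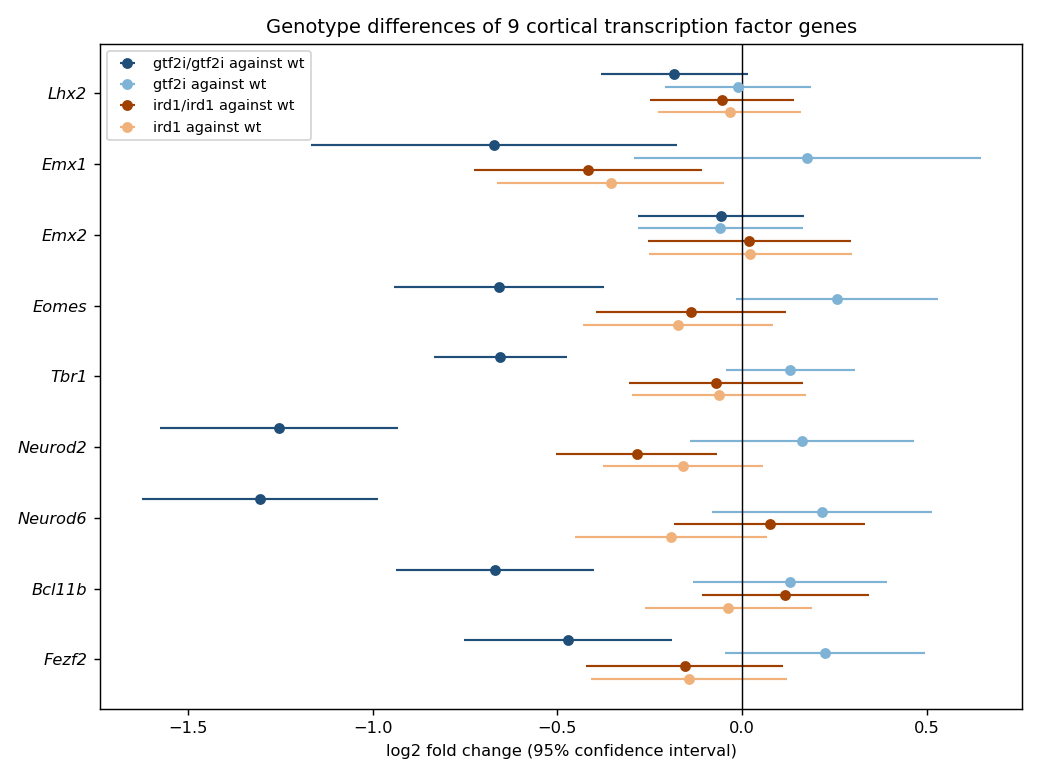
Log2 fold changes of the 9 genes in 4 comparisons with the wt group of the same cross. Points are edgeR estimates and bars are 95% confidence intervals. The gtf2i/gtf2i points of Neurod6 (-1.30) and Neurod2 (-1.25) lie farthest to the left, and the ird1/ird1 points lie between -0.42 and 0.12.

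The difference between the homozygote effects, gtf2i/gtf2i minus wt less ird1/ird1 minus wt, uses the gtf2i/gtf2i libraries and is therefore also a description. It was negative for 9 of 9 genes (51.6% of all genes) and called for 2 of them, against 0.171% of all genes: Neurod6 (-1.38, SE 0.206, adjusted p 0.00271) and Neurod2 (-0.97, SE 0.189, adjusted p 0.0318) by edgeR. Bcl11b (-0.79, adjusted p 0.0669) and Tbr1 (-0.59, adjusted p 0.101) came next by edgeR, and both were called without gtf2i/gtf2i replicate 3. The fits that leave out 1 library called 12 to 723 of all genes, against 20 in the main fit. With the title number as a block Bcl11b was called (-0.80, adjusted p 0.0160 by edgeR), where 83 of all genes were called. In the ird1 cross, deviations of libraries that share this number had a median r of 0.0193 (-0.300 to 0.286). The Neurod2 call was lost in 8 of 12 leave-one-out fits: without wt replicate 3, gtf2i/gtf2i replicate 1 or 2 of the gtf2i cross, wt replicate 1 or 3 of the ird1 cross, or any 1 ird1/ird1 library. Its adjusted p ran from 0.00554 to 0.146 over the 12. That of Neurod6 stayed between 0.000442 and 0.0169. Emx1 differed between the effects by -0.26 (interval -0.88 to 0.36), and by 0.07 without gtf2i/gtf2i replicate 3. In this difference 15 of 18 pan-neuronal markers were lower (median -0.31). Diencephalon, midbrain and hindbrain markers were higher in 20 of 30 (median 0.15) and radial glia markers in 13 of 17 (median 0.10). So were 7 of 10 red blood cell (median 0.30) and 6 of 6 microglia and immune markers (median 0.45). Of these markers 0 were called by edgeR, and their part was not tested. The corresponding difference between the heterozygote effects was negative for 1 of 9 genes, Emx2 (48.2% of all genes), with a median of 0.33. By edgeR 0 were called, against 0.0171% of all genes, and 1 of 9, Eomes, had an unadjusted p under 0.05, against 2.75%. In the same difference 29 of 30 diencephalon, midbrain and hindbrain markers were lower (median -0.41), with 0 called and 8 at an unadjusted p under 0.05, and 10 of 10 red blood cell markers were lower (median -0.40), with 0 called and 1 at that threshold. Their part in the members' values was not tested.

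The wt groups of the crosses were also set side by side. None of the 9 genes was called between them, against 0% of all genes by edgeR, and 1 of 9, Emx1, had an unadjusted p under 0.05, against 32.7%. DESeq2 called 1 of 9, Emx1, and 1561 of all genes. Emx1 was lower in wt of the gtf2i cross (39.7 to 55.2 CPM) than in wt of the ird1 cross (61.6 to 77.0 CPM), a log2 difference of -0.55 (SE 0.206, adjusted p 0.0883 by edgeR and 0.0437 by DESeq2). Emx1 and Eomes were the 2 of 9 without overlap, beside 32% of all genes. In wt of the gtf2i cross 27 of 30 diencephalon, midbrain and hindbrain markers were higher, 5 at an unadjusted p under 0.05. So were 10 of 10 red blood cell markers, 1 at that threshold. Of the pan-neuronal markers 13 of 18 were higher, with 7 higher and 2 lower at it, and 9 of 11 endothelium markers were lower, 3 at it. Of these markers 0 were called by edgeR, and their part was not tested. The lower Emx1 of the libraries labelled ird1 and ird1/ird1 (means of 54.8 and 53.0 CPM) was above the wt mean of the gtf2i cross (48.0 CPM).

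Within genotype groups, pairs of members differed in how their levels varied from embryo to embryo. Over 18 libraries with group means removed, Pearson's r of log2 CPM was 0.82 for Eomes and Lhx2, 0.81 for Neurod6 and Bcl11b, 0.69 for Eomes and Fezf2 and -0.55 for Neurod2 and Emx2. Leaving out each library in turn, which was added after the values were seen, gave no value below 0.72, 0.75 and 0.50 for the first 3 of these pairs and none above -0.44 for the last. Other pairs, with and without Emx1 in them, moved more with gtf2i/gtf2i replicate 3. With and without that library, r was 0.61 and 0.22 for Eomes and Emx1, -0.66 and -0.35 for Bcl11b and Emx1, and -0.50 and -0.21 for Neurod6 and Emx1. It was -0.17 and 0.35 for Eomes and Bcl11b, and -0.32 and 0.05 for Bcl11b and Lhx2. Tbr1 and Emx1 moved less, at -0.01 and -0.14. The median over the 36 pairs was 0.22, with 23 pairs positive, or 0.26 and 28 without that library. Each library gives both values of a pair, so they share its scaling and its dissection, and these coefficients are given as a description.

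Across all 18 libraries, centred within each cross, Tbr1 was most like the mean of the other members (r = 0.96), followed by Eomes (0.93), Fezf2 and Neurod2 (both 0.89), Neurod6 (0.88) and Bcl11b (0.81). Emx1 (0.68) and Lhx2 (0.62) were less like it, and Emx2 (0.09) least. Of 11699 other genes, those with patterns near the members' mean included Bdh1 (r = 0.93), Sh3rf3 (0.92), Reln (0.91) and Nfix (0.91). For single members, genes near in pattern were Bdh1 for Neurod2 (0.97), Reln for Neurod6 (0.96), Efnb2 for Tbr1 (0.94) and for Eomes (0.90), Ptgfrn for Fezf2 (0.91), Ppp2r2b for Bcl11b (0.97), Nfatc4 for Emx1 (0.90), Cenpo for Emx2 (0.86) and Gas1 for Lhx2 (0.82). The gtf2i/gtf2i group weighs heavily in these coefficients, which carry no test.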

How the data were processed

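Ribosome-depleted total RNA of 18 whole E13.5 brains was sequenced, per the labels' protocols. The submitters' processing notes name Trimmomatic, STAR, HTSeq and the mouse build mm10, and their settings and the strand setting are not given in the sources used here. The authors deposited whole-number read counts per gene with 1 transcript length each. The smallest count of a library came to 2.90 to 3.09 CPM of its total, so genes below about that level in any library were not in the table. The members and gene lists were chosen with earlier results of these data known.

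TMM factors (edgeR) scaled the libraries, and filterByExpr kept all 11708 genes. Contrasts inside a cross used its 9 libraries and those between crosses all 18, with edgeR 4.0.16 (R 4.3.3) and Benjamini-Hochberg adjustment over all genes. DESeq2 1.42.0 was an alternative. CPM are from scaled library sizes, and like genes were ranked on log2 CPM with a prior count of 2 (mean of at least 2). The main edgeR fits were tested on simulated counts, though not in every contrast. The alternatives, correlations, summed levels and promoter matches were not tested in this way.

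Named genes were the 9 members, Gtf2i and Gtf2ird1, like genes by Pearson's r (5 for the members' mean and 2 for each member), and up to 5 called genes of each list in each direction, some of which are not reported here. Kdm5c, Pax6, Neurog2 and count ratios were added after their values were seen. No pair of replicates agreed within counting error (chi-square over its degrees of freedom was 2.90 or more). Deviations of gtf2i/gtf2i and wt libraries that share a title number correlated at 0.377, 0.103 and 0.520 across genes. Pairs of these groups with different numbers ran from -0.437 to 0.203. The number was taken to pair these groups, though these ranges overlap. Pairs of gtf2i/gtf2i and gtf2i that share a number were at 0.114, 0.0576 and 0.0614. In the ird1 cross pairs that share a number ran from -0.300 to 0.286, with a median of 0.0193. The block was also used there. Other alternatives were other scalings, filters and sets of libraries.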

Additional observations from a re-analysis of the deposited data

Results flagged for a closer look

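For 2 of the 9 genes a test over all 18 libraries passed the threshold for a difference between the homozygote effects of the crosses. The share over all genes was 0.171%. Marker lists in the same difference are given above. The genes were named with low values in these gtf2i/gtf2i libraries known, so the values below are a description and support nothing by themselves. For Neurod6 the gtf2i/gtf2i effect minus the ird1/ird1 effect was -1.38 on the log2 scale (SE 0.206, adjusted p 0.00271 by edgeR). Its effects were -1.30 in the gtf2i cross, with all 3 gtf2i/gtf2i libraries below all 3 wt libraries, and 0.07 in the ird1 cross. For Neurod2 the difference was -0.97 (SE 0.189, adjusted p 0.0318), from effects of -1.25 and -0.29, and its call was lost in 8 of 12 fits that left out 1 library. With Kdm5c as a covariate the difference was -1.36 for Neurod6 (SE 0.233, adjusted p 0.0250) and -1.004 for Neurod2 (SE 0.215, adjusted p 0.116) by edgeR, so Neurod2 was no longer called while its estimate did not shrink.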

How the results depend on the processing

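The alternatives were DESeq2, 2 other scalings, no filter, a mean of at least 10 CPM, all 18 libraries, only the groups compared, Kdm5c as a covariate, the title number as a replicate block, and leaving out each library. No alternative reversed a called result. In gtf2i/gtf2i against wt (110 genes and 5 of the 9 called) the count of genes was 322 by DESeq2, 262 with all 18 libraries, 31 with only the groups compared, 624 with the replicate block, 8 with Kdm5c and 28 to 1159 without 1 library; the members called were 3 with only the groups compared, which lost Eomes and Bcl11b, 0 with Kdm5c and 3 to 5 without 1 library. In gtf2i/gtf2i against gtf2i (365 genes) it was 892 with the block, 158 with Kdm5c and 67 to 1376 without 1 library, with 5 to 7 members called. In gtf2i against wt (1 gene) it was 6 by DESeq2, 2 with the block, 0 with Kdm5c, 3 with all 18 libraries and 5 with only the groups compared. For the difference of homozygote effects (20 genes, 2 members) it was 84 genes and 4 members by DESeq2, 83 genes with the block, 9 genes and 1 member with Kdm5c, and 12 to 723 genes and 1 to 4 members without 1 library. The difference of heterozygote effects (2 genes) gave 1 gene above 10 CPM, 1 with Kdm5c and 1 to 2 without 1 library. In ird1 against wt and in ird1/ird1 against ird1 (0 genes each), DESeq2 and all 18 libraries called 1 each, as did only the groups compared in the latter, and leaving out 1 library called 0 to 1 and 0. The wt groups (0 genes) gave 1561 genes and 1 member by DESeq2 and 0 to 2076 genes without 1 library. The causes were not tested. With the block, the paired fit added Fezf2 in gtf2i/gtf2i against wt, Emx1 (-0.86, adjusted p 0.0160 by edgeR) against gtf2i, and Bcl11b (-0.80, adjusted p 0.0160) in the difference of homozygote effects, and it changed no other member's call. The contrast of wt groups was not run with the block, because no title number holds libraries of both crosses. Counts of 109 or more limit the precision of a member in 1 library to 9.58% at worst, before the spread between embryos.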

Other observations

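Cortical genes outside the 9 that differed between gtf2i/gtf2i and gtf2i brains included factors of several neuron classes. Of the 50 listed, 20 were higher and 30 lower, and 10 were called lower. Besides Nfib (-0.95), Reln (-0.86), Bhlhe22 (-0.75) and Nfia (-0.65), these included Sox5 (-0.69) and Rprm (-0.57), genes of deep-layer neurons, Slc17a7 (-0.65), the vesicular glutamate transporter of cortical neurons, and Zbtb18 (-0.47), a repressor in new neurons. Nhlh2 (0.71) and Nhlh1 (0.42) rose. Of 22 ventral markers 13 were lower and 9 higher, and 2 were called, all lower. These were Lhx6 (-0.70) and Dlx1 (-0.38), made in migrating and subpallial interneuron precursors. Mapt (-0.70), which encodes the protein tau, was the 1 of 18 pan-neuronal genes called. These are edgeR calls over all genes, of which 3.12% were called.

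Among markers of the diencephalon, midbrain and hindbrain, 11 were called higher in gtf2i/gtf2i against gtf2i. They were Pax3 (1.15), Tal2 (1.00), Nkx6-1 (0.96), Gata2 (0.76), Irx2 (0.72), Lhx1 (0.68), Lhx5 (0.66), Irx3 (0.66), Irx5 (0.64), Irx1 (0.58) and Tal1 (0.48). Tal1, Tal2 and Gata2 act in midbrain GABAergic neurons and the Irx genes in patterning behind the telencephalon. Of 7 choroid plexus markers in the table, 4 were higher and 3 lower in gtf2i/gtf2i against gtf2i, at a median of 0.26 on the log2 scale, and 5 were higher and 2 lower against wt, at a median of 0.13. The 1 called in each comparison was the transporter gene Ttr, which fell by 1.95 against gtf2i and fell by 1.63 against wt.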
